A study of Homo sapiens with 8 samples.

Results

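Transcript levels of 10 genes of glucose uptake and glycolysis were followed in A549 cells, an established human lung adenocarcinoma line, after treatment with interferon gamma (IFN-γ), with AX-0085 or with both. The 10 genes were SLC2A1, HK1, HK2, GPI, PFKP, TPI1, PGK1, ENO1, PKM and LDHA. They were chosen by name for their place in the pathway, but with earlier results of these data known. Numbers of them that rose or fell, set beside all genes, therefore only describe this set. They were matched by Ensembl identifier to 10 of the 60664 genes in the count table. All 10 were among the 15066 genes that passed the expression filter. Messenger RNA was read out from 8 libraries that form 4 groups of 2. Untreated cells received neither agent, and the IFN-γ group received the cytokine alone. Its dose is 20 ng in the labels, which give no volume, and 20 ng/mL in the methods of the study. For the AX-0085 group the compound was given to 0.5 μM without the cytokine. In the combined group IFN-γ was present for 24 h before AX-0085 was added to 0.5 μM. Cells were harvested 24 h after the time of AX-0085 addition. The same times before and after are recorded for all 4 groups, so that effects of IFN-γ and of AX-0085 are not read at equal exposure times. AX-0085 is a synthetic candidate kinase inhibitor that the study examined as a blocker of IFN-γ signaling. All cells are of 1 line, grown in culture, and the labels do not say whether the 2 libraries of a group came from separate cultures, so that p-values measure only the spread between these libraries, which may be technical.

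Glycolysis splits glucose into pyruvate in the cytosol. GLUT1, the product of SLC2A1, carries glucose across the plasma membrane, the hexokinases HK1 and HK2 trap it as phosphorylated glucose, and the enzymes from GPI to PKM convert it stepwise to pyruvate with a net yield of ATP. LDHA then reduces pyruvate to lactate, which regenerates the NAD+ that the pathway consumes. Many tumor lines, lung adenocarcinoma lines among them, run the pathway at a high rate even with oxygen present, and several of its genes are classical targets of the transcription factors HIF-1 and MYC.

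The promoters of HK2, PGK1 and LDHA are shown because HK2 had the largest change of the 10 genes and PGK1 and LDHA are textbook HIF-1 targets. Each sequence runs 5′ to 3′ on the strand of the gene, from 250 bases before to 50 bases after a start of transcription, as RefSeq gives it on GRCh38.p14. Capitals mark ACGTG on either strand, the core of the hypoxia response element, which reads CACGT where it lies on the opposite strand. The E-box CACGTG holds this core on both strands, so that each E-box was also counted as a match to the core, in 1 place. The HK2 window is chr2:74833877-74834176, the PGK1 window chrX:78103998-78104297 and the LDHA window chr11:18394313-18394612, all on the plus strand.
HK2: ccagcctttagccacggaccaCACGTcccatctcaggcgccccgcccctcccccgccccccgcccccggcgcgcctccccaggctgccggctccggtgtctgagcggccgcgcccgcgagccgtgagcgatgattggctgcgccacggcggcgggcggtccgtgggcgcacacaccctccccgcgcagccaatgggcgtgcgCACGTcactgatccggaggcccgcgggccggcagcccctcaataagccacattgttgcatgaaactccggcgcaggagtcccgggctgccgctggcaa
PGK1: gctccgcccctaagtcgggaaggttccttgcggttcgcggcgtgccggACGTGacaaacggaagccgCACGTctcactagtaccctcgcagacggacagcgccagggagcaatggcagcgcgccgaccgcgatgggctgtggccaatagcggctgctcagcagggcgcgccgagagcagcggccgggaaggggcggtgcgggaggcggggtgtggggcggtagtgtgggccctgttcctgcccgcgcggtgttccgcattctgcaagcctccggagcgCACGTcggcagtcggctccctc
LDHA: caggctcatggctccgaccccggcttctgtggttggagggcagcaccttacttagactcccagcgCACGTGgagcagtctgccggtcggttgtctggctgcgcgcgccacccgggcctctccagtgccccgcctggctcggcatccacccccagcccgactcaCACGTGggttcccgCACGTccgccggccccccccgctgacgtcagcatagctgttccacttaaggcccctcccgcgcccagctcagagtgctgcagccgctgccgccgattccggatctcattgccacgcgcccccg
The core was found in 2 places in the HK2 window, in 3 places in the PGK1 window and in 3 places in the LDHA window, where 2 of the places were CACGTG. Of the 10 genes, 4 held ACGTG in the window nearest the start of the main transcript (HK2, GPI, PGK1 and LDHA), against 21.4% of 35116 human promoter windows. CACGTG was held by 1 of 10 (LDHA), against 7.26% of all windows. The gamma-activated sequence TTCNNNGAA, a motif known from promoters of IFN-γ-induced genes, was in 0 of the 10 windows and in 7.66% of all windows, which says only that these letters are not in these windows. Some genes have several windows, and of all 22 windows of the 10 genes 7 held ACGTG, 2 CACGTG and 1 TTCNNNGAA. For PFKP, HK1 and GPI the start of the window used lay 422, 217 and 204 bases from that of the main transcript. SLC2A1, HK1, PFKP, TPI1, ENO1 and PKM had none of these motifs in the window used.

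Libraries held between 20672828 and 29978251 counts, at which 3 counts, used here as the floor of detection, correspond to 0.0959 to 0.158 CPM (counts scaled to a common library size with TMM factors). The treatment labels were checked on GBP1, which is induced by IFN-γ. GBP1 rose by 11.49 on the log2 scale with IFN-γ (SE 0.133, edgeR quasi-likelihood test with Benjamini-Hochberg adjustment, adjusted p = 7.411e-15) and fell by 7.13 when AX-0085 was added (SE 0.0903, edgeR adjusted p = 2.377e-14). Of the 6 epithelial markers, KRT8 (1507 to 4412 CPM) and KRT18 (926.5 to 2382) were abundant. CDH1 (10.71 to 81.71) and KRT19 (9.521 to 46.5) were lower, and EPCAM (0.2812 to 8.613) and CLDN4 (1.326 to 2.859) lower still. Of the alveolar type II markers, 5 of 6 had at most 10 counts in every library, with NKX2-1, SFTPA1 and NAPSA at 0. Of the basal markers, KRT5 and KRT14 had at most 8 counts and TP63 and KRT15 9 to 49 and 12 to 88, so that most of the alveolar and basal markers listed were at or near 0. Of the 6 leukocyte, 5 fibroblast and 4 endothelial markers, 6, 4 and 4 had at most 10 counts in every library (CD3E and CD68 at 0). The exception was the fibroblast marker COL1A1, at 71 to 267 counts (2.852 to 10.54 CPM). The summed CPM of each of these 3 lists did not exceed 0.159, 10.8 and 0.529, and most of the fibroblast sum came from COL1A1. Mitochondrial genes took 2.72% to 3.55% of counts in untreated cells, 1.71% to 1.82% after IFN-γ, 4.12% to 5.73% after AX-0085 and 2.87% to 3.43% under both. The summed CPM of the 6 epithelial markers was 6423 to 6880 in untreated cells, 2575 to 2882 after IFN-γ, 3225 to 3398 after AX-0085 and 3607 to 3661 under both. Most of each sum came from KRT8 and KRT18. The sums were highest in untreated cells, as were GPI, TPI1, PGK1, PKM and LDHA, and the part of these markers and of the mitochondrial share in the results was not tested. In RNA of whole cultures, fewer cells of a kind and less RNA per cell cannot be told apart.

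Levels between genes were compared per kb of the main transcript of each gene. In untreated cells the order was led by ENO1 at 2277 CPM per kb and PKM at 2077, followed by LDHA at 1258 and TPI1 at 1245, whose libraries overlapped. PGK1 (227) and PFKP (214) also overlapped, and GPI (148), SLC2A1 (68.4), HK1 (24.99) and HK2 (0.971) followed, each apart from the next. Apart from PGK1, the enzymes from TPI1 onward were thus the most abundant, and the hexokinases the least. With IFN-γ, ENO1 led at 2981 CPM per kb, SLC2A1 (126) and PGK1 (125) overlapped, and HK2 stood at 11.8, still the lowest. ENO1 was the highest and HK2 the lowest of the 10 in all 4 groups. When the length of all annotated exons was used instead, TPI1 moved from rank 4 to rank 2 in untreated cells, so that the order among PKM, LDHA and TPI1 depends on which transcript is taken.

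**Figure D1:**
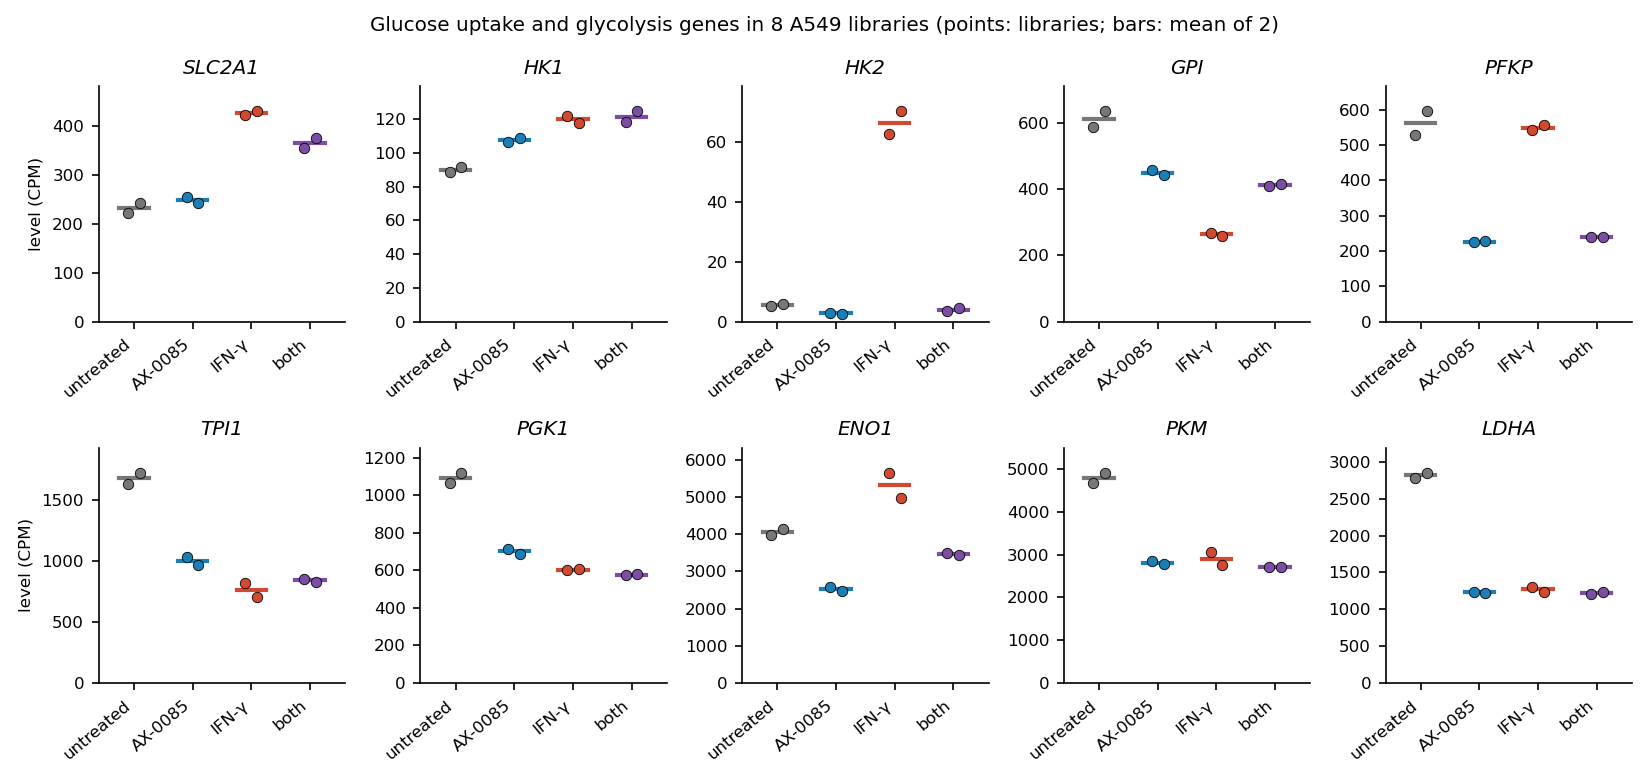
Levels of the 10 genes in CPM (y axis, linear, from 0, a scale for each gene) in the 4 groups. Points are libraries and bars the mean of 2 libraries. HK2 is high in the 2 IFN-γ libraries only, at 62.8 and 70.4 CPM against at most 5.90 elsewhere, while LDHA is at 2786 and 2853 CPM in untreated cells and at most 1302 in the other 6 libraries.

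Transcripts of the glucose transporter rose with IFN-γ. SLC2A1 (ENSG00000117394, chr1:42925353-42958893, minus strand, GRCh38) was at 222 and 241 CPM in untreated cells, 422 and 430 after IFN-γ, 254 and 241 after AX-0085 and 355 and 375 under both. The 4 libraries that received IFN-γ lay above the 4 that did not. SLC2A1 rose by 0.88 on the log2 scale with IFN-γ (SE 0.0616, edgeR adjusted p = 3.486e-08), to 184% of the untreated mean. After addition of AX-0085 it was at 158% of the untreated mean, a fall of the log2 level by 0.22 from IFN-γ alone (SE 0.0609, edgeR adjusted p = 0.005695). That fall no longer passed the test without replicate 1 of the combined group (a log2 change of -0.19, edgeR adjusted p = 0.07133) or when counts were scaled by library size alone (-0.10, adjusted p = 0.1568). AX-0085 alone gave a log2 change of 0.10 that did not pass (SE 0.0614, edgeR adjusted p = 0.1988).

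The 2 hexokinase genes differed in level and in response. HK1 (ENSG00000156515, chr10:69269984-69401884, plus strand), the housekeeping hexokinase, was at 88.6 and 91.4 CPM in untreated cells, 122 and 118 after IFN-γ, 106 and 109 after AX-0085 and 118 and 125 under both. All 6 treated libraries lay above the untreated ones, and IFN-γ with and without AX-0085 overlapped. HK1 rose by 0.41 on the log2 scale with IFN-γ (SE 0.0571, edgeR adjusted p = 2.559e-05) and by 0.26 with AX-0085 (SE 0.0570, edgeR adjusted p = 0.001967).

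HK2 (ENSG00000159399, chr2:74834127-74893359, plus strand) encodes the inducible hexokinase bound to mitochondria in many tumor cells. It was at 5.03 and 5.90 CPM in untreated cells (152 and 145 counts), 62.8 and 70.4 after IFN-γ (1189 and 1752 counts), 2.95 and 2.56 after AX-0085 (74 and 68 counts) and 3.42 and 4.49 under both (107 and 100 counts). The IFN-γ libraries stood far above all others, and the combined libraries lay below the untreated ones. IFN-γ raised HK2 12.2-fold (log2 change 3.62, SE 0.118, edgeR adjusted p = 2.666e-11), and HK2 was 17.1-fold lower on addition of AX-0085 to IFN-γ (log2 change -4.10, SE 0.125, edgeR adjusted p = 1.985e-11). AX-0085 alone lowered it by 0.98 on the log2 scale, a 1.98-fold difference (SE 0.165, edgeR adjusted p = 0.0002467), which passed 2-fold without replicate 1 of untreated cells or replicate 1 of AX-0085 (both -1.09). With both agents HK2 was at 72.4% of the untreated mean (log2 change -0.48, SE 0.154, edgeR adjusted p = 0.01702), but this did not pass without replicate 2 of untreated cells (-0.33, adjusted p = 0.1408) or without replicate 1 of the combined group (-0.24, adjusted p = 0.2979). Per length, HK2 made up 3.51% and 3.97% of the summed HK1 and HK2 transcripts in untreated cells, 24.8% and 27.7% after IFN-γ, 1.74% and 1.49% after AX-0085 and 1.82% and 2.25% under both.

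**Figure D2:**
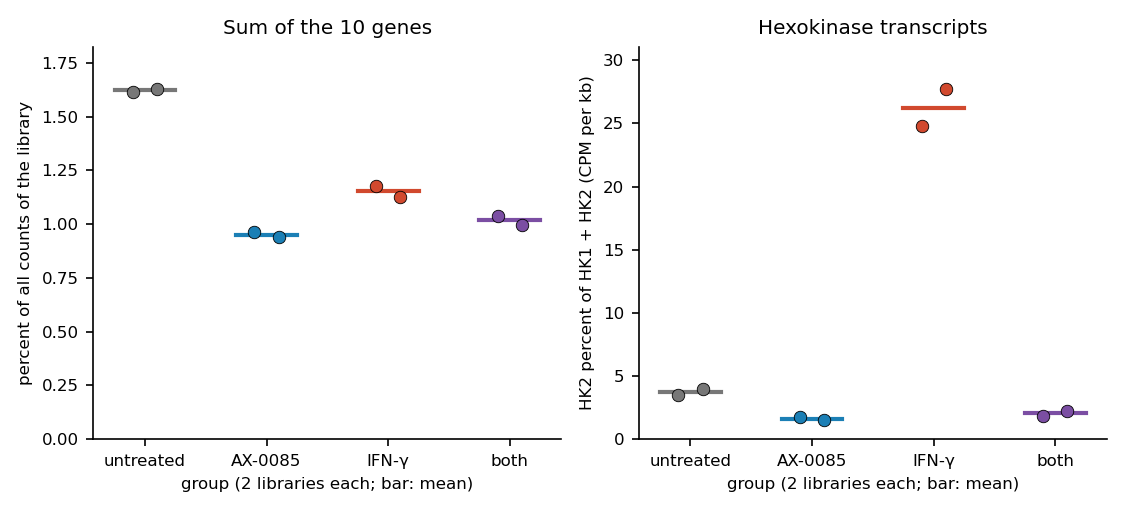
Left, counts of the 10 genes together as a percent of all counts of a library (y axis), and right, HK2 as a percent of HK1 plus HK2 in CPM per kb (y axis), both linear from 0, by group, with points for libraries and bars for the mean of 2. The sum is highest in the untreated libraries, at 1.62% and 1.63%, and the HK2 percent is highest with IFN-γ, at 24.8% and 27.7%.

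GPI fell with each agent, whereas PFKP fell with AX-0085 and did not pass the test with IFN-γ. GPI (ENSG00000105220, chr19:34359480-34402413, plus strand), the isomerase that turns glucose phosphate into fructose phosphate, was at 588 and 635 CPM in untreated cells, 267 and 259 after IFN-γ, 459 and 441 after AX-0085 and 409 and 416 under both. The 4 groups did not overlap, and the combined group lay between IFN-γ and AX-0085. GPI fell by 1.22 on the log2 scale with IFN-γ (SE 0.0607, edgeR adjusted p = 1.31e-09) and rose by 0.65 when AX-0085 was added (SE 0.0603, edgeR adjusted p = 6.614e-07), whereas AX-0085 alone lowered it by 0.44 (SE 0.0596, edgeR adjusted p = 3.788e-05).

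PFKP (ENSG00000067057, chr10:3066333-3137718, plus strand), the platelet form of phosphofructokinase, which catalyzes the committed step, was at 530 and 596 CPM without treatment and 543 and 556 after IFN-γ, with overlapping libraries. It was at 224 and 229 CPM with AX-0085 and 241 and 239 with both. The 4 libraries with AX-0085 thus lay together, well below the 4 without it. PFKP fell by 1.31 on the log2 scale with AX-0085 alone (SE 0.0646, edgeR adjusted p = 5.178e-09) and by 1.20 on its addition to IFN-γ (SE 0.0645, edgeR adjusted p = 3.572e-09). The log2 change with IFN-γ was -0.03 (SE 0.0632, edgeR adjusted p = 0.6456). The AX-0085 effects with and without IFN-γ differed by 0.11 (SE 0.0901, edgeR adjusted p = 0.3119).

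Among the later enzymes, TPI1, PGK1 and PKM fell with each agent, whereas ENO1 rose with IFN-γ and fell with AX-0085. TPI1 (ENSG00000111669, chr12:6867119-6870948, plus strand), which interconverts the triose phosphates, was at 1637 and 1728 CPM in untreated cells, 823 and 709 after IFN-γ, 1033 and 967 after AX-0085 and 857 and 833 under both. Untreated libraries were highest, and TPI1 fell by 1.14 on the log2 scale with IFN-γ (SE 0.0779, edgeR adjusted p = 2.897e-08) and by 0.75 with AX-0085 (SE 0.0772, edgeR adjusted p = 3.511e-06). Without replicate 2 of IFN-γ its change with IFN-γ was -0.99, just short of 2-fold. PGK1 (ENSG00000102144, chrX:77910739-78129295, plus strand), the kinase of the earlier ATP-forming step, was at 1062 and 1119 CPM in untreated cells, 602 and 605 after IFN-γ, 716 and 688 after AX-0085 and 575 and 579 under both. It fell by 0.64 with AX-0085 (SE 0.0597, edgeR adjusted p = 1.577e-06), and with IFN-γ it stood at 55.3% of the untreated mean (SE of the log2 change 0.05995, edgeR adjusted p = 3.581e-08).

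ENO1 (ENSG00000074800, chr1:8861000-8879190, minus strand), which makes phosphoenolpyruvate, was at 3987 and 4125 CPM in untreated cells, 5650 and 4970 after IFN-γ, 2592 and 2471 after AX-0085 and 3481 and 3441 under both. IFN-γ libraries were the highest and AX-0085 libraries the lowest. ENO1 rose by 0.39 on the log2 scale with IFN-γ (SE 0.0803, edgeR adjusted p = 0.0007799), fell by 0.68 with AX-0085 alone (SE 0.0806, edgeR adjusted p = 1.252e-05) and fell by 0.62 on its addition to IFN-γ (SE 0.0805, edgeR adjusted p = 1.686e-05). With both agents it was at 85.3% of the untreated mean (log2 change -0.23, edgeR adjusted p = 0.02679). That last difference did not pass without either untreated library (-0.21 and -0.17, adjusted p = 0.106 and 0.2022) or without either combined library (-0.20 and -0.22, adjusted p = 0.1795 and 0.1423).

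PKM (ENSG00000067225, chr15:72199029-72231819, minus strand), the pyruvate kinase of the last ATP-forming step, was at 4663 and 4913 CPM in untreated cells, 3050 and 2756 after IFN-γ, 2842 and 2769 after AX-0085 and 2716 and 2722 under both. The 6 treated libraries lay close together, all below the untreated ones. PKM fell by 0.72 on the log2 scale with IFN-γ (SE 0.0761, edgeR adjusted p = 1.899e-06) and by 0.77 with AX-0085 (SE 0.0761, edgeR adjusted p = 2.468e-06). Counts per gene do not separate the spliced forms PKM1 and PKM2.

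LDHA (ENSG00000134333, chr11:18394560-18408425, plus strand), the lactate dehydrogenase subunit that favors lactate formation, was at 2786 and 2853 CPM in untreated cells, 1302 and 1240 after IFN-γ, 1236 and 1228 after AX-0085 and 1201 and 1235 under both. The level was 45.1% of the untreated mean after IFN-γ, 43.7% after AX-0085 and 43.2% under both. All 6 treated libraries lay far below the untreated ones. LDHA fell by 1.15 on the log2 scale with IFN-γ (SE 0.0651, edgeR adjusted p = 4.515e-09) and by 1.19 with AX-0085 (SE 0.0651, edgeR adjusted p = 1.178e-08). Addition of AX-0085 to IFN-γ gave a further log2 change of -0.06 (SE 0.0643, edgeR adjusted p = 0.416), and addition of IFN-γ to AX-0085 one of -0.02 (SE 0.0643, edgeR adjusted p = 0.8706). Both estimates were small beside the fall seen with either agent alone.

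Against untreated cells, IFN-γ raised 4 of the 10 genes and lowered 5 at an adjusted p under 0.05, where 32.1% and 36% of all genes tested rose and fell. Past the additional limit of a 2-fold change, 1 was higher (HK2) and 3 were lower (GPI, TPI1 and LDHA), against 10.3% and 17.2% of all genes. The median log2 change of the 10 genes was -0.38 and that of all genes -0.06. AX-0085 alone raised 1 gene (HK1) and lowered 8, against 26.7% and 26.6% of all genes, and by over 2-fold 0 rose and 2 fell (PFKP and LDHA), against 6.41% and 5.62%. The median log2 change with AX-0085 alone was -0.72 for the 10 genes and 0.01 for all genes. The libraries of the groups compared did not overlap for 9 of the 10 genes with IFN-γ and for 10 of 10 with AX-0085, but the same was so for 81.1% and 76.2% of all genes tested. These 2 comparisons share the untreated libraries. With 2 libraries against 2, an exact permutation test of a single gene cannot give a two-sided p under 0.333, so that the tests rest on the spread shared across genes and groups.

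On addition of AX-0085 to IFN-γ, 1 gene rose (GPI), 4 fell (SLC2A1, HK2, PFKP and ENO1) and 5 did not pass, where 33.7% and 32.8% of all genes rose and fell. By over 2-fold, 0 rose and 2 fell (HK2 and PFKP), against 16.5% and 8.28% of all genes. The median log2 change was -0.08 for the 10 genes and 0.03 for all genes. Of the 5 that did not pass, TPI1 had a log2 change of 0.14 (SE 0.0771, edgeR adjusted p = 0.1238), which was 0.25 without replicate 1 of IFN-γ (adjusted p = 0.007109), and PKM one of -0.09 (SE 0.0757, edgeR adjusted p = 0.2885), which was -0.17 without replicate 2 of IFN-γ (adjusted p = 0.04844). HK1 and PGK1 had log2 changes of 0.02 (SE 0.0566) and -0.06 (SE 0.0597). Scaling by library size alone moved the median of all genes in this comparison by 0.12 on the log2 scale, and the changes of PGK1, PKM and LDHA then had the opposite sign, at 0.06, 0.03 and 0.06, without passing the test. TPI1 and HK1 then passed, at 0.27 and 0.14 (edgeR adjusted p = 0.004275 and 0.04932).

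**Figure D3:**
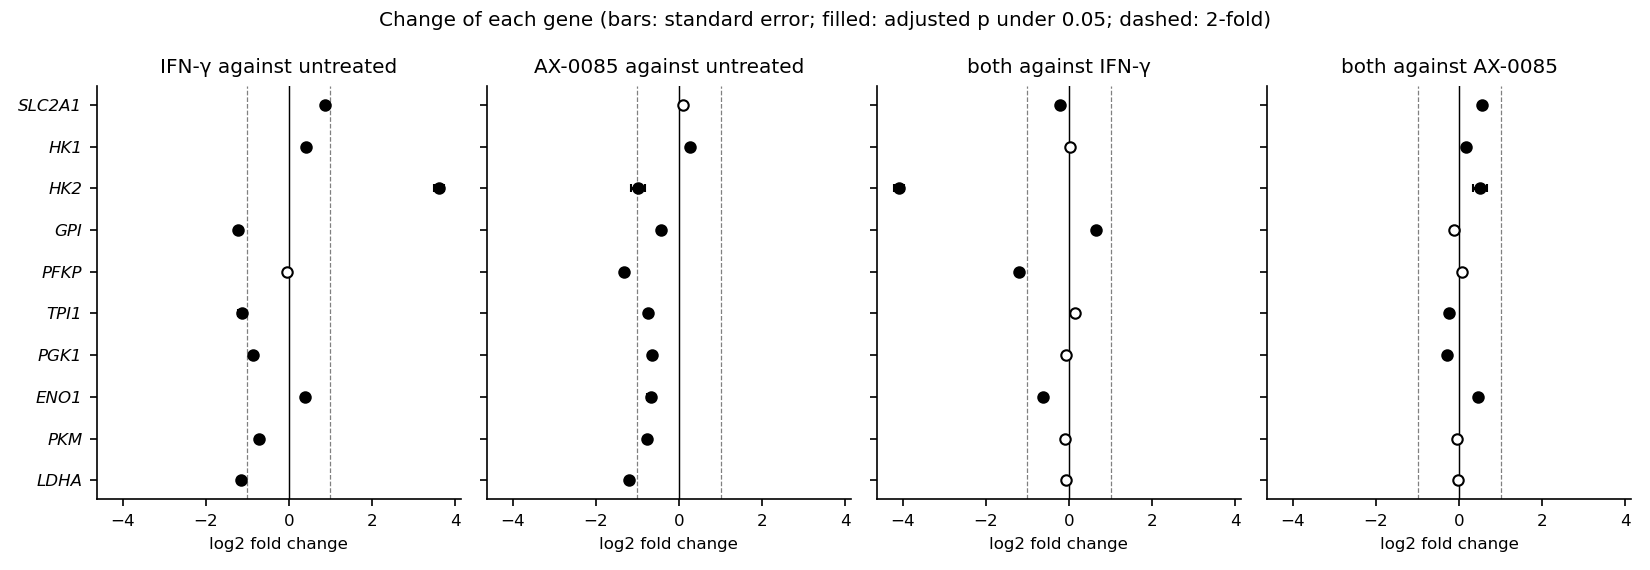
Log2 fold change of each gene (x axis, bars are standard errors) in 4 comparisons, with filled points for an adjusted p under 0.05 and dashed lines at a 2-fold change. HK2 is the only gene beyond 3 in size, at 3.62 with IFN-γ and -4.10 on addition of AX-0085, and none of the 10 passes 2-fold between both agents and AX-0085 alone.

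Between the combined group and AX-0085 alone, 4 genes rose and 2 fell, against 17.3% and 17.4% of all genes, and 0 passed 2-fold in either direction, against 1.79% and 1.73%. SLC2A1 rose by 0.56 on the log2 scale (SE 0.0613, edgeR adjusted p = 2.338e-05) and ENO1 by 0.45 (SE 0.0804, edgeR adjusted p = 0.0009134). HK2 rose by 0.50 (SE 0.176, edgeR adjusted p = 0.04217) and HK1 by 0.17 (SE 0.0565, adjusted p = 0.02955). TPI1 fell by 0.24 (adjusted p = 0.02641) and PGK1 by 0.28 (adjusted p = 0.002831). Apart from SLC2A1 and ENO1, each of these calls was lost without at least 1 library. HK2 had an adjusted p of 0.06948 and 0.2206 without replicates 1 and 2 of AX-0085 and 0.2749 without replicate 2 of the combined group. HK1 had 0.1455 and 0.09893 without the AX-0085 replicates and 0.2376 without replicate 2 of the combined group. TPI1 had 0.1704 and 0.05185 without the AX-0085 replicates and 0.1396 and 0.1657 without those of the combined group, and PGK1 had 0.0614 without replicate 1 of the combined group. Against untreated cells, the combined group had 2 genes higher and 8 lower, against 28.1% and 28.8% of all genes, and by over 2-fold 0 were higher and 2 lower (PFKP and LDHA), against 7.51% and 7.23%. DESeq2 gave the same counts past 2-fold in each of these comparisons.

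The interaction compared the AX-0085 effect with IFN-γ present with its effect without IFN-γ, on the log2 scale. It was positive for 5 of the 10 genes and negative for 3 at an adjusted p under 0.05, against 26.7% and 23.6% of all genes. Past 2-fold it was positive for GPI and LDHA and negative for HK2, against 12.1% and 6.46% of all genes. For HK2 the AX-0085 effect was -4.10 with IFN-γ and -0.98 without, a difference of -3.11 (SE 0.221, edgeR adjusted p = 1.759e-07). For GPI it was 0.65 with IFN-γ and -0.44 without, a difference of 1.09 (SE 0.0848, edgeR adjusted p = 3.654e-07). For LDHA it was -0.06 with IFN-γ and -1.19 without, a difference of 1.13 (SE 0.0912, edgeR adjusted p = 5.162e-07). TPI1, PKM and PGK1 had differences of 0.89 (1.0031, just over 2-fold, without replicate 1 of IFN-γ), 0.68 and 0.57, and SLC2A1 and HK1 of -0.32 and -0.24. The HK1 difference (adjusted p = 0.0253) did not pass without replicate 1 of untreated cells (0.05231), either AX-0085 replicate (0.05172 and 0.08575) or replicate 1 of the combined group (0.109), and without a filter on low counts (0.06029). With library size alone neither the SLC2A1 difference (-0.21, adjusted p = 0.06414) nor that of HK1 (-0.12, adjusted p = 0.2503) passed. For PFKP and ENO1 it was 0.11 and 0.06 and did not pass (edgeR adjusted p = 0.3119 and 0.6725).

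Together the 10 genes took 1.62% and 1.63% of all counts in untreated cells, 1.18% and 1.13% after IFN-γ, 0.964% and 0.938% after AX-0085 and 1.04% and 0.998% under both. All 6 treated libraries lay below the untreated ones, although ENO1, the most abundant per length, rose with IFN-γ. The sum is of counts not scaled by length, and most of it came from the most abundant genes. In replicate 1 of untreated cells ENO1, PKM and LDHA had 120578, 141029 and 84245 counts. SLC2A1, HK1 and HK2 had 6702, 2679 and 152, so that their rises with IFN-γ hardly enter the sum. Over the 8 libraries, log2 CPM of PKM and LDHA had a Pearson's r of 0.994, TPI1 and PGK1 0.975, HK2 and ENO1 0.868, HK1 and PGK1 -0.976, and SLC2A1 and GPI -0.88. The libraries fall into 4 treatment groups, so that these values describe the treatment pattern. Among 7502 abundant genes, those with the highest Pearson's r to the mean profile of the 10 genes over the 8 libraries were USP39 (0.997), EIF5A (0.994), BOLA3 (0.994), ACTB (0.994) and HSPA4 (0.994). This mean of log2 levels was not scaled by gene, so that in it the HK2 rise of 3.62 with IFN-γ offsets the falls of other members. The genes named follow this mean and need not resemble most of the 10.

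Of 35 other listed genes of glucose transport, glycolysis and lactate handling, 20 were tested. With IFN-γ 5 rose and 13 fell, where 32.1% and 36% of all genes did, and 1 and 8 of them passed 2-fold, where 10.3% and 17.2% of all genes did. The median log2 change with IFN-γ was -0.86 against -0.06 for all genes. With AX-0085 alone 4 rose and 10 fell, where 26.7% and 26.6% of all genes did (median -0.26, all genes 0.01). On addition of AX-0085 to IFN-γ 10 rose and 8 fell, where 33.7% and 32.8% of all genes did (median 0.35, all genes 0.03). Past 2-fold 1 rose and 5 fell with AX-0085 alone (all genes 6.41% and 5.62%), and on its addition to IFN-γ 4 and 2 (all genes 16.5% and 8.28%). HKDC1, a further hexokinase family member, rose by 1.23 with IFN-γ and fell by 1.55 on addition of AX-0085, both in the direction of HK2. SLC16A3, the lactate exporter MCT4, fell by 1.15 with IFN-γ and by 1.10 with AX-0085, both in the direction of LDHA. Unlike LDHA, which did not pass there, SLC16A3 rose by 0.38 on addition of AX-0085 to IFN-γ (edgeR adjusted p = 0.0009606). Between both agents and AX-0085 alone it rose by 0.33 (edgeR adjusted p = 0.005975), where LDHA did not pass either. SLC2A6, a glucose transporter of intracellular membranes, had log2 changes of -1.39 with IFN-γ and -1.64 with AX-0085 alone. ENO2, the neuronal enolase, fell by 1.14 with IFN-γ and PGAM1, the phosphoglycerate mutase ahead of enolase, by 1.24 with AX-0085. ENO3, the muscle enolase, and BSG, the chaperone of lactate transporters, rose by 1.56 and 1.35 on addition of AX-0085 to IFN-γ.

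GAPDH, the step between TPI1 and PGK1, was at 5490 and 5669 CPM in untreated cells, 2803 and 2536 after IFN-γ, 5908 and 5780 after AX-0085 and 5222 and 5177 under both. It fell by 1.06 on the log2 scale with IFN-γ (SE 0.0787, edgeR adjusted p = 5.94e-08) and rose by 0.96 on addition of AX-0085 (SE 0.0785, edgeR adjusted p = 1.934e-07), and AX-0085 alone gave 0.07 (SE 0.0778, edgeR adjusted p = 0.4949). Genes on the opposite strand cover 17.6% of its exons. GAPDH, ALDOA and LDHB are given because they complete the steps described, and they were chosen after their values were seen. ALDOA, the aldolase of the pathway, was listed at 0 to 3 counts and LDHB, the partner subunit of LDHA, at 0 to 4. Genes on the same strand cover 42.8% and 33.4% of their exons in the GENCODE 44 annotation. How the counting treated reads shared by overlapping genes is not given in the sources used here. The reason for the low counts was not tested, and these 2 genes were treated as not measured. In the lists below, TIGAR and SDHA had 0 counts in all libraries, SDHD at most 1 and EGLN1 at most 3. Genes on the same strand cover 18.1%, 21.7%, 11.4% and 55.8% of their exons. PCK2 had 0 counts without such an overlap. These genes were not tested either, and their low counts were not taken as absence of expression.

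**Figure D4:**
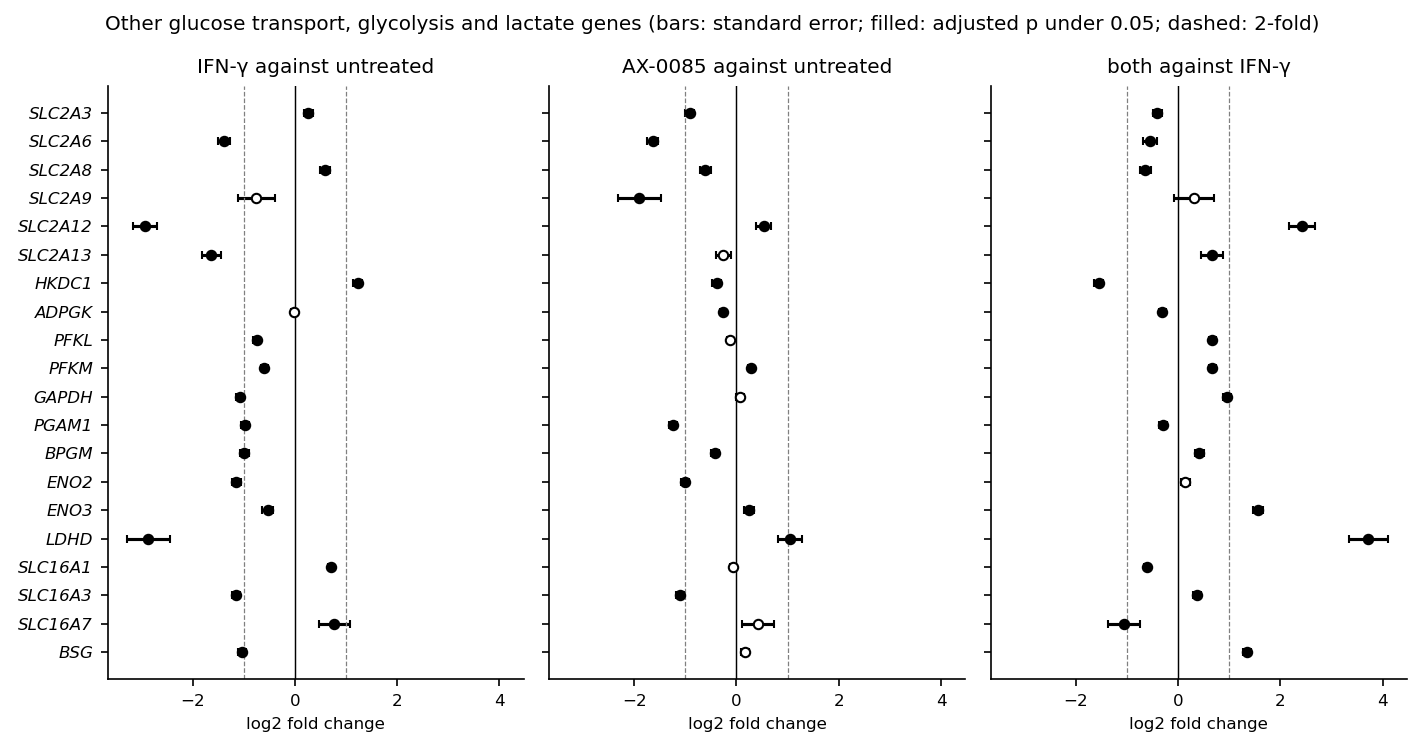
Log2 fold change (x axis, bars are standard errors) of the 20 tested genes of glucose transport, glycolysis and lactate handling outside the 10, in 3 comparisons, with filled points for an adjusted p under 0.05 and dashed lines at a 2-fold change. Most points lie left of 0 with IFN-γ (13 fell) and 10 rose on addition of AX-0085.

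Of 26 listed regulators of the pathway and of pyruvate entry into mitochondria, 24 were tested. With IFN-γ 12 rose and 10 fell, where 32.1% and 36% of all genes did (median log2 change 0.02, all genes -0.06). With AX-0085 alone 6 rose and 10 fell, where 26.7% and 26.6% of all genes did (median -0.09, all genes 0.01). On addition of AX-0085 to IFN-γ 8 rose and 10 fell, where 33.7% and 32.8% of all genes did (median -0.07, all genes 0.03). Past 2-fold 5 rose and 4 fell with IFN-γ, where 10.3% and 17.2% of all genes did. With AX-0085 alone 2 rose and 0 fell past 2-fold (all genes 6.41% and 5.62%), and on its addition to IFN-γ 5 and 4 (all genes 16.5% and 8.28%). TXNIP, an arrestin that removes GLUT1 from the plasma membrane, had 1 and 4 counts in untreated cells, 463 and 694 after IFN-γ, 229 and 253 after AX-0085 and 651 and 510 under both. ARRDC4, its relative with a like role, rose by 4.23 on the log2 scale with IFN-γ and by 2.68 with AX-0085. MYC, a transcription factor that binds E-boxes of many glycolysis genes, rose by 2.03 with IFN-γ and fell by 1.58 on addition of AX-0085. PDK2 and PDK3, kinases that inactivate pyruvate dehydrogenase, had log2 changes of -2.08 and -2.14 with IFN-γ and rose by 1.79 and 1.73 on addition of AX-0085. PFKFB3, which makes an activator of phosphofructokinase, fell by 1.67 and rose by 1.36 in the same comparisons. PDP1, a phosphatase that reactivates pyruvate dehydrogenase, and EPAS1, a hypoxia-inducible factor, had log2 changes of -1.15 and -1.14 on addition of AX-0085, and MLXIP, a glucose-sensing transcription factor, was higher by 1.36 with both agents than in untreated cells.

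Of 18 listed hypoxia-response genes outside glycolysis, 17 were tested. With IFN-γ 6 rose and 6 fell, close to the 32.1% and 36% of all genes (median log2 change 0.04, all genes -0.06). With AX-0085 alone 4 rose and 6 fell, where 26.7% and 26.6% of all genes did (median 0.05, all genes 0.01). On addition of AX-0085 to IFN-γ 6 rose and 9 fell, where 33.7% and 32.8% of all genes did (median -0.22, all genes 0.03). Past 2-fold 4 rose and 4 fell with IFN-γ, where 10.3% and 17.2% of all genes did. With AX-0085 alone 1 rose and 2 fell past 2-fold (all genes 6.41% and 5.62%), and on its addition to IFN-γ 4 and 4 (all genes 16.5% and 8.28%). The angiogenic factor VEGFA rose by 2.22 with IFN-γ and fell by 1.44 on addition of AX-0085, and the histone demethylase KDM3A and the MYC antagonist MXI1 rose by 1.34 and 1.24 with IFN-γ. EGLN3, a prolyl hydroxylase that marks HIF for degradation, fell by 2.66 and then rose by 1.61, and the carbonic anhydrase CA12 fell by 1.32 and rose by 1.59. P4HA2, a collagen prolyl hydroxylase, fell by 1.32 with IFN-γ and rose by 1.29 on addition of AX-0085. The peptide hormone gene ADM fell by 1.38 with AX-0085 alone, and the log2 change on its addition to IFN-γ was -2.65, where NDRG1 fell by 1.17.

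For 3 neighboring pathways the counts are read against the same shares of all genes, 32.1% rising and 36% falling with IFN-γ, 26.7% and 26.6% with AX-0085 alone, and 33.7% and 32.8% on addition of AX-0085 to IFN-γ. In the pentose phosphate pathway 7 of 8 genes were tested, of which 2 rose and 3 fell with IFN-γ, 3 and 2 with AX-0085 alone, and 4 and 2 on addition of AX-0085 to IFN-γ. TKT, the transketolase, had a log2 change of -1.4985 with IFN-γ. On addition of AX-0085, TKT and PGD rose by 1.63 and 1.01 and RPIA fell by 1.35. In gluconeogenesis and glycogen metabolism 11 of 18 were tested, of which 8 fell and 3 did not pass with IFN-γ, 5 rose and 4 fell with AX-0085 alone, and 8 rose and 1 fell on addition of AX-0085 to IFN-γ. SLC37A4, the glucose phosphate transporter of the endoplasmic reticulum, and PC, pyruvate carboxylase, had log2 changes of -2.33 and -1.34 with IFN-γ and rose by 1.33 and 1.25 on that addition. In the tricarboxylic acid cycle 16 of 18 were tested, of which 2 rose and 10 fell with IFN-γ, 10 fell and 6 did not pass with AX-0085 alone, and 4 rose and 6 fell on addition of AX-0085 to IFN-γ. IDH2, a mitochondrial isocitrate dehydrogenase, fell by 1.45 with IFN-γ. The median log2 changes with IFN-γ of these 3 lists were 0.00, -0.33 and -0.32, against -0.06 for all genes. Past 2-fold with IFN-γ 0 rose in each list and 2, 2 and 1 fell, where 10.3% and 17.2% of all genes rose and fell. On addition of AX-0085 to IFN-γ 2, 3 and 0 rose and 1, 0 and 0 fell past 2-fold, where 16.5% and 8.28% of all genes did.

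Processed copies of these genes could take reads from them. Of 22 pseudogenes named after the 10 genes, 15 had 0 counts in all libraries, and TPI1P1 and TPI1P2 were the ones over 10 counts in any library. TPI1P1 held between 179 and 602 counts, which was 0.963% to 1.72% of the TPI1 count in the same library. The other pseudogenes had at most 7 counts. How reads that map to several places were treated is not given in the sources used here. Annotated overlaps with other genes covered at most 7.51% of the exons of any of the 10 genes, for SLC2A1 on the opposite strand, and 5.07% on the same strand, for GPI.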

How the data were processed

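Stranded mRNA libraries of 8 A549 samples (2 for each of 4 groups, from the labels) were sequenced by the authors, who trimmed reads with Trim Galore 0.6.7, mapped them with STAR 2.7.9a to GRCh38 and counted them per gene with featureCounts. The deposited values are raw counts per gene without normalization, and totals lay between 20672828 and 29978251. The annotation release and strand setting are not given in the sources used here. From the counts, genes were filtered (filterByExpr, minimum count 10), scaled with TMM factors and tested with the quasi-likelihood test of edgeR 4.0.16 in R 4.3.3, in 1 model of the 4 groups without covariates, with Benjamini-Hochberg adjustment over all 15066 genes. A gene rose or fell at an adjusted p under 0.05. The common biological coefficient of variation was 0.0609. The standard error is the size of the log2 change divided by the square root of the F statistic. The 2 libraries of a group differed by more than sampling noise (chi-square per degree of freedom 9.50 to 31.6).

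The members and lists were chosen with earlier results of these data known. Named are the 10 genes, GBP1, for each list and comparison up to 3 genes in each direction with the largest change among those over 2-fold whose libraries do not overlap and whose mean is at least 4 CPM, and the 5 genes of at least 16 CPM most like the mean profile. A few genes chosen in this way are left out of the text. Positions and overlaps are from GENCODE 44 on GRCh38, which holds 60463 of the 60664 identifiers, and promoters are from RefSeq. Alternatives were DESeq2 1.42.0, other scalings and filters, other thresholds, only the groups compared, the replicate number as a block, and leaving out each library. In simulated counts of 15066 genes for IFN-γ against untreated, 200 were changed by a log2 value of 2 or 1.5 in size. These were abundant genes only, with as many rises as falls, and all genes had the same dispersion. edgeR and DESeq2 called 100% of both sizes in the planted direction, with 3 and 0 false calls past 2-fold and 16 and 9 at the adjusted p alone. Changes near 2-fold, or many more genes changing mostly in 1 direction, were not simulated.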

Additional observations from a re-analysis of the deposited data

Results flagged for a closer look

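The effect of AX-0085 differed between cells with and without IFN-γ, by the interaction test across all genes and past a 2-fold difference, for 3 of the 10 genes. For HK2 the log2 effect of AX-0085 with IFN-γ minus that without was -3.1141 (edgeR adjusted p = 1.759e-07), with the 2 combined libraries below both IFN-γ libraries and the 2 AX-0085 libraries below both untreated ones. For GPI the difference was 1.0927 (edgeR adjusted p = 3.654e-07), with AX-0085 libraries below the untreated ones and combined libraries above the IFN-γ ones. For LDHA it was 1.1329 (edgeR adjusted p = 5.162e-07), with 1 agent alone at 1228 to 1302 CPM and both agents at 1201 and 1235 CPM. When tested against a 2-fold difference itself, the GPI and LDHA differences did not pass (glmTreat of edgeR, adjusted p = 0.3723 and 0.2256).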

How the results depend on the processing

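The counts of the 10 genes past 2-fold moved by at most 1 when a library was left out, through HK2 with AX-0085 (-1.089 to -0.8608) and TPI1 with IFN-γ (-1.2464 to -0.9899) and in the interaction (0.774 to 1.0031). TPI1 was also counted with library size alone in the interaction (1.0112) and without a filter between both and untreated (-1.0013). The counts were the same with DESeq2, RLE size factors, the stricter filter and only the groups compared. At an adjusted p alone, the counts of higher and lower genes were 4 and 5 with IFN-γ, 1 and 8 with AX-0085, 1 and 4 on addition of AX-0085 to IFN-γ, 4 and 2 between both and AX-0085, 2 and 8 between both and untreated, and 5 and 3 for the interaction. With glmTreat of edgeR against a 2-fold change, the interaction had 0 genes higher in place of 2, and TPI1 no longer passed with IFN-γ (adjusted p = 0.08283), which left 2 of 3 lower. Over all alternatives the HK2 change lay between 3.50 and 3.77 with IFN-γ, between -4.28 and -3.89 on addition of AX-0085 and between -3.30 and -2.92 for the interaction. Of 60 changes of single genes, 37 no longer passed with glmTreat, which tests against 2-fold in place of 0. Under the alternatives that test against 0, of the values of single genes 960 kept their direction and side of the threshold, 27 were no longer past it, 6 newly passed it and 17 changed sign, all 17 of changes that had not passed. Those with IFN-γ were of PFKP, at 0.0113 with DESeq2, 0.0112 with RLE size factors and 0.0057 with only the groups compared. Those on addition of AX-0085 to IFN-γ were of HK1, at -0.0186 with DESeq2 and with RLE size factors, and, with library size alone, of PGK1 (0.0579), PKM (0.0294) and LDHA (0.0608). The cause of these was not tested. With 1 library left out, PFKP with IFN-γ ranged from -0.0747 to 0.0914, HK1 on addition of AX-0085 to IFN-γ from -0.0197 to 0.0531, LDHA between both and AX-0085 from -0.0366 to 0.028, and the ENO1 interaction from -0.041 to 0.1582. Same-numbered libraries of different groups had correlations of their deviations between -0.242 and 0.229, so the numbers were not shown to pair the libraries. The replicate number as a block gave 1 gene higher and 3 lower past 2-fold with IFN-γ and changed no such count in any comparison. Crossed pairings, chosen after seeing the data, changed no such count either. The interaction needs all 4 groups, and a fit of only the groups compared was not run for it. With 2 libraries a group, a small change rests on few samples, as the calls lost without 1 library show.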
